A study of Mus musculus with 59 samples.

Results

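BCL6, PPARα and PPARδ were placed by ChIP-seq in mouse liver around 10 genes through which the fasted liver answers to glucagon and glucocorticoid. The genes were *Creb3l3*, *Creb1*, *Crtc2* and *Sik1* of the CREB branch, the coactivator genes *Ppargc1a* and *Ppargc1b*, and *Nr3c1*, *Klf9*, *Klf15* and *Fkbp5* of the glucocorticoid branch. A peak was given to a gene if its center lay inside the gene, or if the gene owned the nearest transcription start site (TSS) of a protein-coding gene and that TSS was within 100 kb. By this rule 287 of 102931 peaks belonged to the 10 genes. Peaks of the 6 C57BL/6 lists with centers within 200 bp of each other were joined into sites, and 84 of 38462 sites (0.218%) lay at the 10 genes. This rule used the position of a peak and neither its factor nor its feeding state.

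The livers came from male mice. BCL6, PPARα and PPARδ were each mapped in wild-type C57BL/6 mice that were fed ad libitum and in wild-type C57BL/6 mice that were fasted overnight. BCL6 was also mapped in fed *Bcl6* fl/fl mice on C57BL/6, which carry loxP sites at *Bcl6* without Cre and serve as the floxed controls of the hepatocyte knockout. The labels give no age. Each list combines 3 samples of 1 group, so the 7 lists stand for 21 of the 59 samples, and whole liver holds other cells beside hepatocytes. A list gives no more than where each peak starts and ends on mm10. Without a tag count or a value per sample there is no depth, no peak height and no error between replicates, and the gain or loss of a peak between fed and fasted livers could not be tested. A peak missing from a list was not called there, which is not the same as no binding. The intervals below are 95% Wilson intervals. They cover counting error only, and they are too narrow where several sites share a gene.

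Glucagon raises cAMP in hepatocytes during a fast, and the kinase that cAMP activates phosphorylates CREB, the product of *Creb1*. The same signal silences the salt-inducible kinases, the product of *Sik1* among them, which otherwise hold the CREB coactivator CRTC2 in the cytoplasm. CREB and CRTC2 then turn on *Ppargc1a*, whose product PGC-1α coactivates PPARα and other nuclear receptors. Glucocorticoids act in parallel through the glucocorticoid receptor encoded by *Nr3c1*. BCL6 is a zinc finger repressor, and PPARα and PPARδ are lipid-activated nuclear receptors that bind DNA together with RXR.

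PPARα peaks were found at all 10 genes, BCL6 peaks at 7 and PPARδ peaks at 8. Among the 21000 protein-coding genes, 49.5% had at least 1 PPARα site, 30.9% a BCL6 site and 21.1% a PPARδ site. Sites called for all 3 factors lay at *Sik1*, *Ppargc1b*, *Nr3c1*, *Klf9* and *Fkbp5*, 5 of the 10 genes, where 12.9% of all genes had such a site. *Creb3l3*, *Creb1* and *Crtc2* had no BCL6 peak in either list from C57BL/6 livers. Thus 3 genes had 1 or 2 sites close to a TSS, and 7 had 7 to 15 sites spread over the gene and its surroundings.

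**Figure D1:**
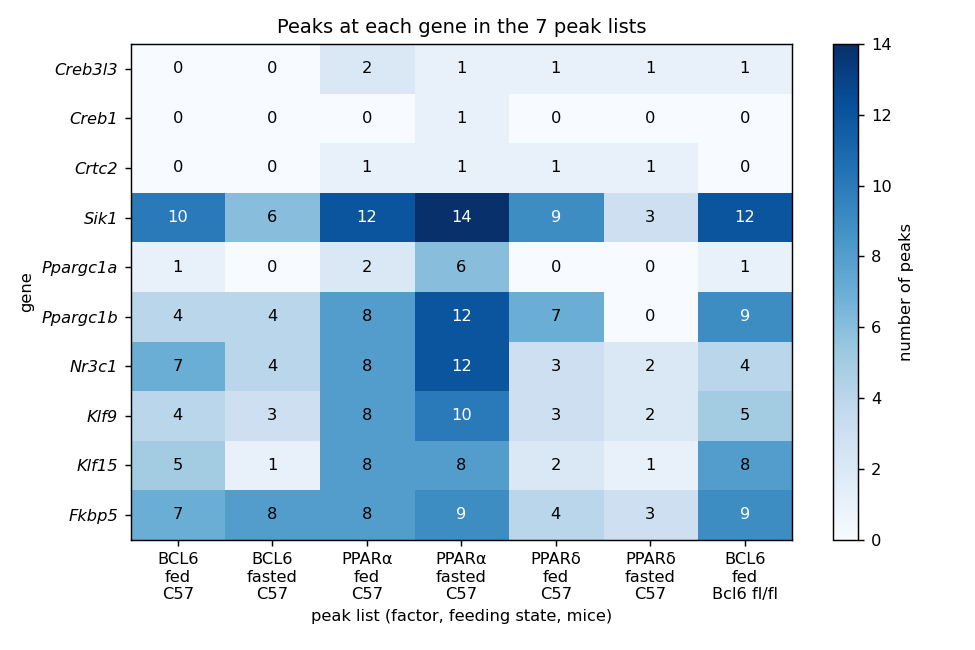
Number of peaks at each gene (rows) in each of the 7 lists (columns); darker cells hold more peaks. *Sik1* had 14 fasted PPARα peaks, *Ppargc1b* had 7 fed and 0 fasted PPARδ peaks, and *Creb3l3*, *Creb1* and *Crtc2* had at most 2 peaks in any list.

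*Sik1* had 15 sites, a number that 1.0% of protein-coding genes reached. *Nr3c1* had 14 (reached by 1.29%), *Ppargc1b* and *Fkbp5* had 12 each (1.95%), *Klf9* and *Klf15* had 10 each (3.20%) and *Ppargc1a* had 7 (6.92%). *Creb3l3* had 2 sites, as many as 33.3% of genes, and *Creb1* and *Crtc2* had 1 each, as many as 52.8%. The median was 10.0 sites over the 10 genes and 1 over all genes. Part of such a count follows from how much sequence is given to a gene. Per 100 kb of sequence assigned to them the 10 genes held 6.26 sites, and all genes together held 1.97. By this density *Klf15* came first with 16.4 sites per 100 kb, then *Fkbp5* with 10.9 and *Creb3l3* with 9.52, whereas *Creb1* had 0.582. *Sik1*, *Nr3c1*, *Ppargc1b*, *Fkbp5*, *Klf9* and *Ppargc1a* stood less far out by density than by count. The density of *Klf15* was reached by 2.25% of genes, that of *Fkbp5* by 5.89%, *Creb3l3* by 7.78%, *Sik1* by 9.79%, *Crtc2* by 11.4% and *Ppargc1b* by 13.5%. For *Nr3c1* it was 15.5%, for *Klf9* 15.6%, for *Ppargc1a* 28.0% and for *Creb1* 50.5%.

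**Figure D2:**
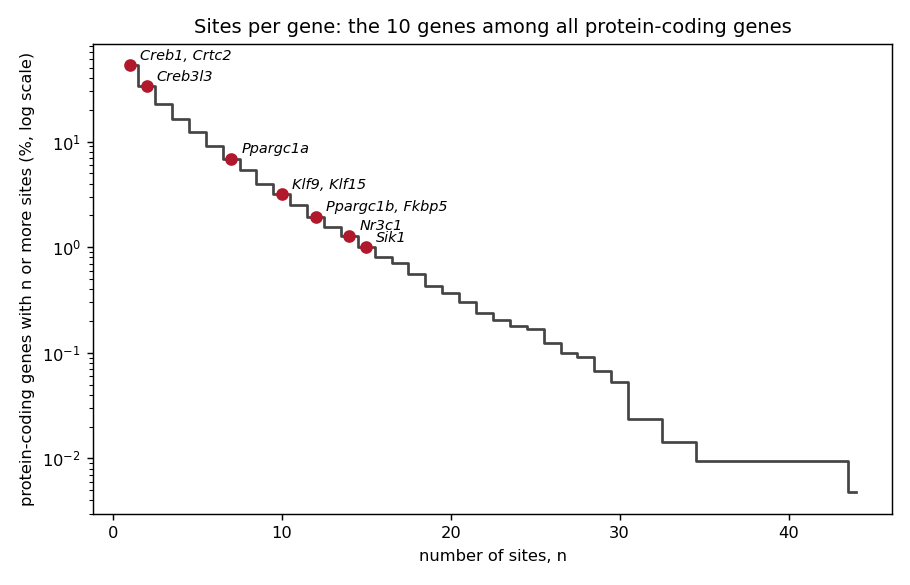
Share of protein-coding genes (vertical axis, %, log scale) with at least the number of sites on the horizontal axis; the line is all 21000 genes and the points are the 10 genes. *Sik1*, with 15 sites, lies where 1.0% of genes remain, and *Creb1* and *Crtc2*, with 1 site, where 52.8% remain.

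Of the 84 sites, 40 lay in introns, 30 upstream, 6 downstream, 3 in exons and 5 in promoters, which reach from 1000 bp before a TSS to 100 bp after it. Promoter sites thus made up 5.95% (2.57 to 13.2%), beside 11.9% of all sites. The median distance from the nearest protein-coding TSS was 26100 bp at the 10 genes and 12600 bp over all sites within reach.

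**Figure D3:**
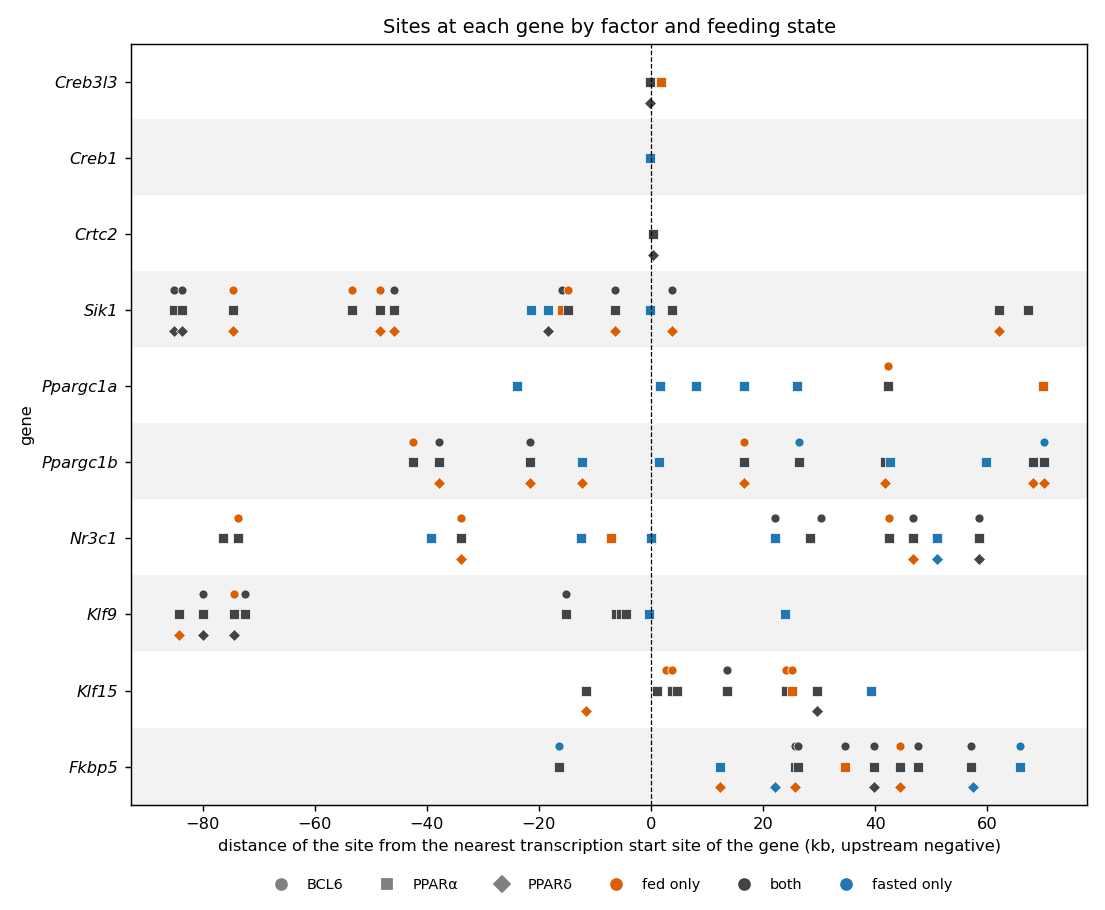
Position of each site relative to the nearest TSS of its gene (kb, upstream negative); circles are BCL6, squares PPARα and diamonds PPARδ, colored by the feeding state in which the peak was called, and symbols of close sites overlap. *Ppargc1a* shows 5 PPARα sites called only when fasted, and the BCL6 sites of *Sik1* reach 85059 bp upstream.

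In the CREB branch, the genes of the transcription factors and of their coactivator carried few sites. At *Creb1* the only peak was a PPARα peak in fasted livers at chr1:64532449-64532671, centered 244 bp upstream of the TSS. At *Crtc2* a site at chr3:90254000-90254257, in the 5′ UTR of exon 1 and 276 bp downstream of the TSS, was called for PPARα and PPARδ in both feeding states. *Creb3l3* encodes CREB-H, a membrane-bound factor of the CREB family that is abundant in hepatocytes. Its site at chr10:81092691-81093017 was likewise called for PPARα and PPARδ in both states and not for BCL6. The center of this site was 250 bp upstream of the TSS of the shorter curated transcript, and 6031 bp downstream of that of the longer one, where it falls in the untranslated exon 2. Its other site, at chr10:81090789-81091005 in intron 5, was called for PPARα only when fed, and *Bcl6* fl/fl livers had a BCL6 peak there.

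*Sik1*, the brake of the branch, differed from these genes in its number of sites and in its BCL6 calls in C57BL/6 livers. It was also given more sequence, 178 kb beside 21 kb at *Creb3l3*, 171 kb at *Creb1* and 13 kb at *Crtc2*. Per 100 kb it held 8.41 sites, fewer than *Creb3l3* with 9.52 and more than *Crtc2* with 7.58 and *Creb1* with 0.582. BCL6 was called at 10 *Sik1* peaks in fed livers and 6 in fasted livers, PPARα at 12 and 14, and PPARδ at 9 and 3. Fed *Bcl6* fl/fl livers had 12 BCL6 peaks. Every BCL6 site of *Sik1* was also a PPARα site, 10 of 10, and 7 of the 15 sites were called for all 3 factors. Of those 7, the sites 85059 bp and 83663 bp upstream (chr17:31940679-31941084 and chr17:31939332-31939586) were called in all 6 lists. Those 74564 bp and 48339 bp upstream kept PPARα on fasting and lost the calls of BCL6 and PPARδ. Those 45775 bp and 6485 bp upstream, and 3686 bp downstream in intron 3, kept BCL6 and PPARα and lost only PPARδ. The promoter site at chr17:31855878-31856100, 185 bp upstream of the TSS, behaved differently and was called for PPARα in fasted livers alone, as was a site 21432 bp upstream.

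The sequences under these peaks are shown for the sites that the description of the branch turns on. They are read from the + strand of GRCm38, the assembly of mm10, in windows of 200 bp at the site center, and capitals mark matches to the elements searched. For *Creb3l3* only the 65 bp up to exon 2 are given, with a match to the PPAR direct repeat in capitals. For *Sik1* the far upstream site of all 6 lists has the full CREB element TGACGTCA, the site 15826 bp upstream has a BCL6 element, the site 6485 bp upstream has 2 matches to the PPAR direct repeat, and the promoter site has 3 matches to the CREB element, of which 1 is the full element.
Creb3l3 site, chr10:81092742-81092806: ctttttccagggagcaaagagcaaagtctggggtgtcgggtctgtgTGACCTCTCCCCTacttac
Sik1 far upstream, chr17:31940764-31940963: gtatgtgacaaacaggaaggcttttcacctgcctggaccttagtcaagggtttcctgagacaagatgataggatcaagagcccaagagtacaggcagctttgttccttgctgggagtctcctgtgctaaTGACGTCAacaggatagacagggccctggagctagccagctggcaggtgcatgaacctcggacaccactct
Sik1 BCL6 element, chr17:31871531-31871730: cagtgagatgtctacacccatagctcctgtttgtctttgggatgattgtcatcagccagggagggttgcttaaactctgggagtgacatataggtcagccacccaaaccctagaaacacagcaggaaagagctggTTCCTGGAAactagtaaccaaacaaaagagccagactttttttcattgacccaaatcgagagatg
Sik1 PPAR repeats, chr17:31862190-31862389: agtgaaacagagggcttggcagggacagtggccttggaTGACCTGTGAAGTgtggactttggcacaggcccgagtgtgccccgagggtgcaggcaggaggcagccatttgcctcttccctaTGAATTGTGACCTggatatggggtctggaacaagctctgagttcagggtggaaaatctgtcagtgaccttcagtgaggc
Sik1 promoter, chr17:31855890-31856089: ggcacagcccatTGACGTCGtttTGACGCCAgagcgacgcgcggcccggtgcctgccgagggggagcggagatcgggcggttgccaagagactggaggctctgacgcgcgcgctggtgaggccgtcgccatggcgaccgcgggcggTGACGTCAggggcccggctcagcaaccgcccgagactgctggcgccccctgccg

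The coactivator genes differed in which factors were called. At *Ppargc1a*, 2 PPARα peaks were called in fed livers and 6 in fasted livers, with 1 fed and 0 fasted BCL6 peaks and no PPARδ peak in either state. Of its 7 sites, 5 were called only when fasted, all of them for PPARα alone. Such sites made up 20.2% of the sites at the 10 genes and 25.3% of all sites. The 5 at *Ppargc1a* included sites 23956 bp upstream of a TSS (chr5:51591570-51591792) and 1589 bp downstream in intron 1 (chr5:51552221-51552443). The rest lay 8069, 16658 and 25946 bp downstream in intron 2. The single BCL6 site, 42217 bp downstream in the same intron, was called in fed livers with PPARα in both states, and fed *Bcl6* fl/fl livers had a BCL6 peak there too. None of the 5 sites called in fasted livers alone had a BCL6 peak in *Bcl6* fl/fl livers. Over all PPARα sites called only when fasted and without BCL6 in C57BL/6 livers, 8.31% had one. With the predicted RefSeq transcripts, which lengthen the gene, *Ppargc1a* had 14 sites. The intron site at chr5:51537152-51537374 is shown because its window holds a match to the glucocorticoid receptor palindrome, which lies near the window's center.
Ppargc1a intron 2, chr5:51537164-51537363: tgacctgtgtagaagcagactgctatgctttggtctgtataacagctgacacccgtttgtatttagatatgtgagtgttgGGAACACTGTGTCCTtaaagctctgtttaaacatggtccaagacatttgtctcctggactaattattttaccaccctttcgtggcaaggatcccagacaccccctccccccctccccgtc

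*Ppargc1b* encodes PGC-1β, a relative of PGC-1α that coactivates SREBP and other factors of lipid synthesis. It had 4 BCL6 peaks in each feeding state, 8 fed and 12 fasted PPARα peaks, and 7 fed and 0 fasted PPARδ peaks. No other of the 10 genes went from more than 1 PPARδ peak to none, and the site on which each of the 7 lay was called for PPARα as well. Over the whole list, 20.9% of fed PPARδ peaks had a fasted PPARδ peak within 200 bp. PPARα was called at 85.0% of all PPARδ sites. The equal BCL6 counts came from different sites, since 2 BCL6 sites were called in both states, 2 only when fed and 2 only when fasted. The 2 called in fasted livers, 26347 and 70072 bp downstream in intron 1, each had a BCL6 peak in fed *Bcl6* fl/fl livers. In all, those livers had 9 BCL6 peaks at *Ppargc1b*, of which 3 had no BCL6 peak in either C57BL/6 list. Sites called for all 3 factors lay 37798 bp upstream (chr18:61438013-61438436), 21535 bp upstream (chr18:61421805-61422080), and 16633 and 70072 bp downstream, each with PPARα in both states. PPARα alone was called in fasted livers alone at 1375, 42660 and 59745 bp downstream, all in intron 1.

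In the glucocorticoid branch, the receptor gene *Nr3c1* had 14 sites. BCL6 was called at 7 fed and 4 fasted peaks, PPARα at 8 and 12, and PPARδ at 3 and 2. Its fed BCL6 peaks numbered 4 in *Bcl6* fl/fl livers, fewer than in C57BL/6 livers, a direction shared with no other of the 10 genes. It was also the only one of the 10 genes where BCL6 was called in both states and PPARα in neither, at a site 30305 bp downstream. The site at chr18:39430611-39430880, 58529 bp downstream in intron 2, was called in all 6 lists. The other sites of all 3 factors lay 33846 bp upstream, where BCL6 and PPARδ were called only when fed, and 46781 bp downstream. Sites called in fasted livers alone lay at a promoter, 100 bp upstream of the nearest of 5 curated TSSs (chr18:39490902-39491124), 39200 and 12546 bp upstream of the nearest TSS, and 50937 bp downstream, the last for PPARα and PPARδ.

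*Klf15*, a Krüppel-like factor that drives amino acid breakdown and gluconeogenesis, had 5 BCL6 peaks in fed livers and 1 in fasted livers. *Sik1* lost as many, 4, out of 10. PPARα was called at 8 peaks in each state and PPARδ at 2 fed peaks and 1 fasted peak. Of the 5 BCL6 sites, 4 were called only when fed, and all 4 had a BCL6 peak in fed *Bcl6* fl/fl livers, which had 8 in all. At 2 of these 4, 3654 bp downstream in intron 1 and 24112 bp downstream beyond the gene, PPARα was called in both states. At another, 25196 bp downstream, PPARα was called only when fed. The site at chr6:90467051-90467290 lay in the coding part of exon 2 and was called for PPARα in both states. The only *Klf15* site called in fasted livers alone lay 39187 bp downstream and was a PPARα site.

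*Klf9*, a direct target of the glucocorticoid receptor in many tissues, had 4 fed and 3 fasted BCL6 peaks, 8 and 10 PPARα peaks, and 3 and 2 PPARδ peaks. Its 8 sites upstream of the promoter fell into 2 groups. A cluster 84193 to 72429 bp upstream held 4 sites, among them those of all 3 factors at chr19:23061168-23061441, called in all 6 lists, and at chr19:23066790-23067033, where BCL6 was called only when fed. Between 15224 and 4532 bp upstream, 4 sites kept PPARα in both states. In C57BL/6 livers BCL6 was called at the farthest of these 4 alone, whereas the fed *Bcl6* fl/fl list had BCL6 peaks 6181 and 5331 bp upstream and none at the farthest. The sites called in fasted livers alone were PPARα sites at the promoter (chr19:23140719-23140941, 396 bp upstream) and in the 3′ UTR in exon 2 (chr19:23164914-23165136, 23799 bp downstream). Shown are the site 6181 bp upstream, whose window has a match to the glucocorticoid receptor palindrome, and the promoter site, whose window has a match to the CREB element at its edge.
Klf9 upstream, chr19:23134946-23135145: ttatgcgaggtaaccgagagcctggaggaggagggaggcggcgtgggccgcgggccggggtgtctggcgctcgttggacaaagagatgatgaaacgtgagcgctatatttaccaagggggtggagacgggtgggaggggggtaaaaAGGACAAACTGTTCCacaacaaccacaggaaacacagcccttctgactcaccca
Klf9 promoter, chr19:23140731-23140930: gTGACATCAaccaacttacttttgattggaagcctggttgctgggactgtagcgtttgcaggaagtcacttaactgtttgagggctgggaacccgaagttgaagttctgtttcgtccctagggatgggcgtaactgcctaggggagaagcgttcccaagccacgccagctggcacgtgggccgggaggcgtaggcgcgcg

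*Fkbp5* encodes FKBP51, a co-chaperone that lowers the affinity of the glucocorticoid receptor for its hormone and is itself induced by that receptor. It was the one gene of the 10 with more BCL6 peaks in fasted than in fed C57BL/6 livers, by 8 against 7. Fed *Bcl6* fl/fl livers had 9, more than the fasted livers. PPARα was called at 8 fed and 9 fasted peaks and PPARδ at 4 and 3. All 9 BCL6 sites were PPARα sites, and 6 of them kept BCL6 in both states. Of the 12 sites, 11 lay inside the gene. The site at chr17:28446214-28446506, in intron 1, was called in all 6 lists. Those 25587 and 44361 bp downstream were called for all 3 factors with PPARδ only when fed, the latter also with BCL6 only when fed. In fasted livers alone, PPARδ was called without the other factors 22053 and 57472 bp downstream, and BCL6 was called together with PPARα at chr17:28420168-28420420 in intron 5. Fed *Bcl6* fl/fl livers had a BCL6 peak at the site in intron 5, and its nearest TSS belongs to *Tulp1*. The windows shown are that of the site of all 6 lists, with 2 matches to the PPAR direct repeat, and that of the intron 5 site, with 2 matches to the glucocorticoid receptor palindrome and 1 to the PPAR direct repeat.
Fkbp5 intron 1, chr17:28446258-28446457: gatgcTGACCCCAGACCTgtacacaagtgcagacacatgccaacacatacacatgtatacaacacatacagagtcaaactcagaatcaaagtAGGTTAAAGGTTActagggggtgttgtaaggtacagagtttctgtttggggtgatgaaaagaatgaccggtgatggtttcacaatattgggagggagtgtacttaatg
Fkbp5 intron 5, chr17:28420198-28420397: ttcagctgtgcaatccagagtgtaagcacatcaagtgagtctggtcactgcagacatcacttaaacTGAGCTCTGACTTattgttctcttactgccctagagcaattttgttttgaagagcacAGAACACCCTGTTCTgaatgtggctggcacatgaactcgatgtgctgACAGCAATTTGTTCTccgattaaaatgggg

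Set side by side over the 10 genes, BCL6 had 38 fed and 26 fasted peaks, PPARα 57 and 74, and PPARδ 30 and 13. The whole lists moved the same way, from 15642 to 9613 BCL6 peaks, from 21410 to 29085 PPARα peaks and from 7328 to 2399 PPARδ peaks. The 10 genes held 0.243% of the fed BCL6 list (0.177 to 0.333%) and 0.270% of the fasted one (0.185 to 0.396%). They held 0.266% of fed PPARα peaks (0.206 to 0.345%) and 0.254% of fasted ones (0.203 to 0.319%). For PPARδ the shares were 0.409% fed (0.287 to 0.584%) and 0.542% fasted (0.317 to 0.925%). The intervals of the fed and fasted shares overlapped for each factor.

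A fasted peak of the same factor within 200 bp was found for 22 of 38 fed BCL6 peaks, 57.9% (42.2 to 72.1%), beside 48.9% of the whole list. For PPARα it was 51 of 57, 89.5% (78.9 to 95.1%), beside 79.9%. For PPARδ it was 10 of 30, 33.3% (19.2 to 51.2%), beside 20.9%. Each of these 3 intervals held the share of the whole list.

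Counted as sites, BCL6 was called at 42 sites: 16 only when fed (38.1%, beside 45.3% of all BCL6 sites), 22 in both states (52.4%, beside 43.6%) and 4 only when fasted (9.52%, beside 11.0%). PPARα was called at 80 sites: 6 only when fed (7.5%, beside 12.8%), 51 in both (63.8%, beside 51.3%) and 23 only when fasted (28.8%, beside 35.8%). PPARδ was called at 33 sites: 20 only when fed (60.6%, beside 70.7%), 10 in both (30.3%, beside 18.7%) and 3 only when fasted (9.09%, beside 10.6%). The interval of the PPARα sites called in both states, 52.8 to 73.4%, began above the share over all sites, and the other 8 intervals held theirs. Without regard to factor, 21 of the 84 sites (25.0%) were called in fasted lists only, beside 29.1% of all sites, and 5 (5.95%) in fed lists only, beside 17.9%.

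**Figure D4:**
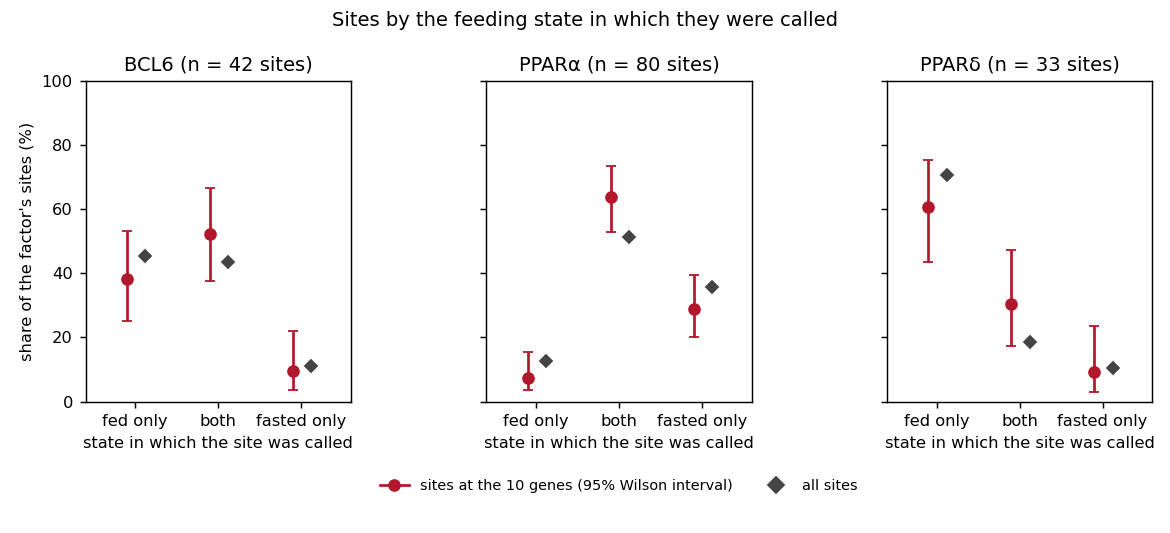
Share of each factor's sites (vertical axis, %) called only when fed, in both states or only when fasted; circles with 95% Wilson intervals are the sites at the 10 genes and diamonds are all sites. For PPARα 63.8% of sites at the 10 genes were called in both states, beside 51.3% of all sites.

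BCL6 at these genes lay almost wholly on PPARα sites. Of 42 BCL6 sites 40 were PPARα sites, 95.2% (84.2 to 98.7%), beside 77.5% of all BCL6 sites, and the exceptions were a site of *Nr3c1* and a site of *Klf15*. The centers of the BCL6 and PPARα peaks were a median of 16.0 bp apart at these 40 sites and 14.0 bp apart at all shared sites. In turn, 40 of 80 PPARα sites had BCL6, 50.0% (39.3 to 60.7%), beside 40.9%. PPARα was also called at 31 of 33 PPARδ sites, 93.9% (80.4 to 98.3%), beside 85.0%. All 3 factors were called at 19 of the 84 sites, 22.6% (15.0 to 32.6%), beside 12.1% of all sites. PPARα was called in both states at each of those 19, where this was so for 93.0% of all sites of 3 factors.

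The feeding state went with BCL6 in the following way, and each interval given here held the share over all such sites. Of the 40 PPARα sites without BCL6, 21 were called only when fasted, 52.5% (37.5 to 67.1%), beside 52.6% of all such sites. Of the 40 with BCL6, 2 were called only when fasted, 5.0% (1.38 to 16.5%), beside 11.6%. At 14 of these 40 shared sites BCL6 was called only when fed and PPARα in both, 35.0% (22.1 to 50.5%), beside 25.1%. A switch in which BCL6 was called only fed and PPARα only fasted, or the reverse, occurred at 0 of 40 sites (Wilson interval 0 to 8.76%), where a limit of 3 counts allows a share of up to 7.5%, beside 6.40% of all shared sites. PPARα remained called in both states at 18 of the 20 sites where PPARδ was called only when fed, 90.0% (69.9 to 97.2%), beside 75.2%.

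At 4 of the 5 promoter sites, those of *Creb1*, *Sik1*, *Nr3c1* and *Klf9*, PPARα was called only when fasted and no other factor was called (80.0%, 37.6 to 96.4%). Over all promoter PPARα sites, 60.4% were called only when fasted, a share that this interval holds. The *Creb3l3* site was the exception, with PPARα and PPARδ in both states. No promoter site of the 10 genes had BCL6 in any of the 3 BCL6 lists.

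The fed *Bcl6* fl/fl livers gave a second, separately called list of fed BCL6 peaks. Of the 16 BCL6 sites called only in fed C57BL/6 livers, 12 were called there, 75% (50.5 to 89.8%), beside 51.1% of all such sites. Of the 22 called in both states, 20 were called, 90.9% (72.2 to 97.5%), beside 88.7%. Of the 4 called only in fasted C57BL/6 livers, 3 were called in these fed livers, 75% (30.1 to 95.4%), beside 49.2%; those 3 thus had a BCL6 call in a fed list too. The floxed list held 49 peaks at the 10 genes, and 14 of them had no BCL6 peak within 200 bp in either C57BL/6 list. Where PPARα was called in both states without BCL6 in C57BL/6 livers, 9 of 16 sites had a floxed BCL6 peak, 56.2% (33.2 to 76.9%), beside 33.8%. Where PPARα was called only when fasted, 2 of 21 did, 9.52% (2.65 to 28.9%), beside 8.31%.

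Sequence elements were searched on both strands in 200 bp at each site. The BCL6 element TTCCTAGAA, with up to 1 mismatch, was in 8 of 84 windows, 9.52% (4.91 to 17.7%), beside 9.83% of all sites, and 7 of the 8 were BCL6 sites (87.5%, 52.9 to 97.8%), beside 70.0% of all sites with the element. The PPAR direct repeat, AGGTCA followed by 1 base and AGGTCA again with up to 2 mismatches, was in 11 windows, 13.1% (7.47 to 21.9%), beside 13.5%. The CREB element TGACGTCA, with up to 1 mismatch, was in 13 windows, 15.5% (9.27 to 24.7%), beside 7.51%. The glucocorticoid receptor palindrome, AGAACA and TGTTCT spaced by 3 bases with up to 2 mismatches, was in 4 windows, 4.76% (1.87 to 11.6%), beside 2.14%, and these 4 belonged to *Ppargc1a*, *Klf9* and *Fkbp5*. The FOXA element TGTTTAC was in 2 windows, 2.38% (0.655 to 8.27%), beside 7.37%. A CREB element was in 3 of the 5 promoter windows, those of *Creb3l3*, *Sik1* and *Klf9*, beside 8.83% of all promoter sites. In windows of 50 bp the CREB element was in 3 of 84 (3.57%, beside 1.73% of all sites). Spelled exactly, it was in 2 of the 84 windows of 200 bp (2.38%, beside 0.520%), both at *Sik1* and both shown above.

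**Figure D5:**
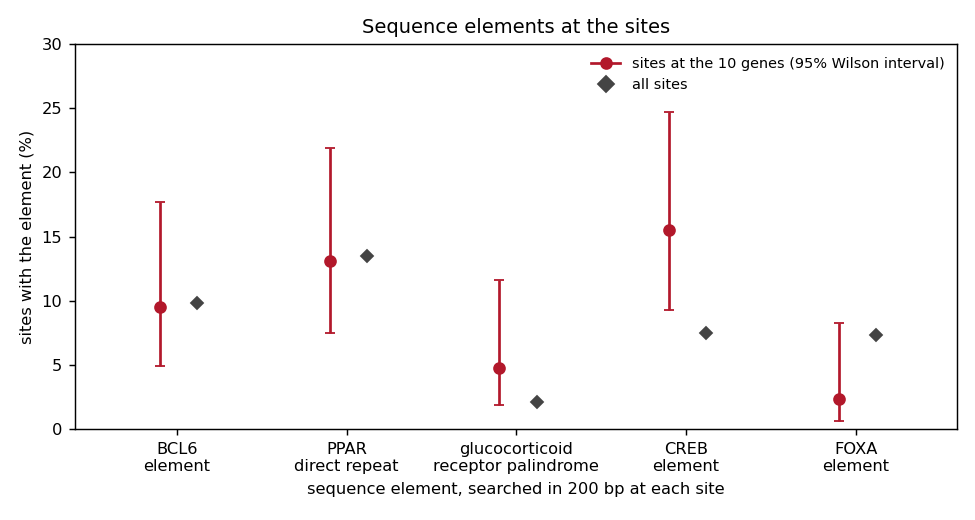
Share of sites (vertical axis, %) whose 200 bp window holds each element; circles with 95% Wilson intervals are the 84 sites at the 10 genes and diamonds are all 38462 sites. The CREB element was in 15.5% beside 7.51%, and the BCL6 element in 9.52% beside 9.83%.

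RefSeq promoter windows, covering 250 bp before and 50 bp after a TSS, were at hand for 6 of the 10 genes. Among the tabled windows, only those of *Creb3l3* and *Creb1* held a peak center. The window at the downstream TSS of *Creb3l3* held the centers of the fed and fasted PPARα and the fasted PPARδ peak, and the same direct repeat as above, an element in 3.86% of all promoter windows. The *Creb1* window held the fasted PPARα center and none of the 5 elements. The *Klf9* window held a CREB and a FOXA element (12.5% and 3.65% of all promoter windows) but no peak center, and the *Ppargc1a* window held a CREB element.

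Other genes of these pathways carried sites as well. In the list of cAMP and CREB signalling, 19 of 24 genes had a site (beside 52.8% of all genes) and 13 had BCL6 (beside 30.9%). The median was 3.0 sites. The most lay at *Sik3*, a further salt-inducible kinase, with 25, then *Adcy9*, an adenylyl cyclase, with 13, and *Creb3l2*, *Creb5* and *Crtc3* with 7 each. *Sik3* was called for BCL6 at 8 fed and 4 fasted peaks and for PPARα at 16 and 19. *Sik2* and *Crtc1* were among the 5 genes with none. All 17 genes of glucocorticoid signalling had a PPARα site, beside 49.5% of all genes, and 14 had BCL6, beside 30.9%. *Tsc22d3*, which encodes the glucocorticoid-induced leucine zipper, had 21 sites, *Zbtb16* had 20, and *Cebpb* and *Nr3c2*, the gene of the mineralocorticoid receptor, had 10 each.

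Among 15 other Krüppel-like factor genes, 10 had a site, beside 52.8% of all genes. *Klf3* had 12 and *Klf10*, *Klf12* and *Klf13* had 11 each, beside 10 each at *Klf9* and *Klf15*. *Klf10* had 3 fed and 10 fasted PPARα peaks and *Klf12* had 4 and 11, whereas *Klf3* had 10 in each state and *Klf13* had 8 and 9, beside 8 in each state at *Klf15*. Of 15 partners of PGC-1 and other coactivators, 14 had a site, beside the same 52.8% of all genes. Most sites lay at *Nrip1*, which encodes the corepressor RIP140, with 15, then *Ncoa2* with 9 and *Ncoa3* with 8. In all 4 lists PPARα peaks were more numerous in fasted than in fed livers, by 74 against 56, 92 against 69, 58 against 37 and 51 against 29. BCL6 peaks numbered 23 against 36, 24 against 28, 19 against 19 and 15 against 21, in the same order of lists and of states. Over all genes and sequence, PPARα peaks numbered 29085 fasted against 21410 fed, and BCL6 peaks 9613 against 15642.

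Over the 7 peak counts, the gene most like each member with at least 5 sites was looked for among all other protein-coding genes, by the sum of absolute differences. *Rasal2* had the same 7 counts as *Ppargc1a*. *Acaa2* differed from *Klf9* by 2 peaks in all, *Cyp7a1* from *Fkbp5* by 3, *Ank* from *Klf15* by 4 and *Pde8a* from *Nr3c1* by 5. *Acaa2* encodes a thiolase of mitochondrial fatty acid oxidation and *Cyp7a1* the rate-limiting enzyme of bile acid synthesis. For *Ppargc1b* 4 genes were tied at 5 peaks, and for *Sik1* 2 genes were tied at 8. The likeness is of counts alone and not of position.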

How the data were processed

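ChIP-seq peaks of BCL6, PPARα and PPARδ in fed and overnight fasted C57BL/6 livers, and of BCL6 in fed *Bcl6* fl/fl livers, were analysed from 7 lists. The authors sequenced 75 bp single-end reads, aligned them uniquely to mm10 with Bowtie, counted a start position once at most, and ran HOMER on tags pooled over 3 samples against input. The authors then ran DESeq2 on the single libraries to select peaks with 2-fold enrichment at a false discovery rate of 0.05. The deposited lists give positions only, with no normalization, and the depth is unknown, so sequence that cannot be mapped uniquely and peaks near the threshold in shallower libraries may be missing.

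Peak centers within 200 bp were joined by single linkage over the 6 C57BL/6 lists. Genes and TSSs were 39650 curated transcripts of 21000 protein-coding genes in RefSeq on GRCm38. No test was made between states, because replicates are pooled. Shares over all sites, peaks or genes, which include those of the 10 genes, stand beside each share. Promoter windows and genome sequence came from RefSeq GRCm38.p6. The 10 genes and 4 pathway lists were chosen with earlier results of these data known. Named were all 10 genes, the 3 genes with most sites of each pathway list with ties, the single gene most like each of the 10 that had at least 5 sites (where genes were tied, their number), and among sites those at promoters, of all 3 factors, of opposite change, or called in fasted livers alone; other sites in the text, and pathway genes with no site, were named after their values were seen. Joining, assignment and element search were tested on simulated data. Scripts ran in Python 3.11.15 with Matplotlib 3.10.9, SciPy 1.17.1 and NumPy 2.4.6. The other 38 samples were not used here. Alternatives covered the joining distance, the reach and set of TSSs, the promoter, the windows and the mismatches.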

Additional observations from a re-analysis of the deposited data

How the results depend on the processing

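The counts at the 10 genes followed the reach of the rule. With the nearest TSS within 20 kb in place of 100 kb, there were 22 fed and 19 fasted BCL6 peaks and 36 fed and 50 fasted PPARα peaks. PPARδ peaks numbered 17 fed and 8 fasted, and BCL6 peaks in *Bcl6* fl/fl livers 31. At this reach *Sik1*, *Klf9* and *Klf15* had 6 sites each. Inside the gene bodies alone there were 45 sites, with 18 and 15 fed and fasted BCL6 peaks, 27 and 37 PPARα peaks, 13 and 7 PPARδ peaks, and 26 BCL6 peaks in *Bcl6* fl/fl livers. Of single genes, *Sik1* then had 1 site and *Klf9* 1, *Creb1* none, and within 1 Mb *Ppargc1a* had 18. In every setting tried, BCL6 and PPARδ peaks at the 10 genes were fewer and PPARα peaks more numerous in fasted livers. The way peaks are joined into sites does not enter these counts, and the other settings count overlapping sets of the same peaks. The kept shares ranged from 46.9 to 68.2% for BCL6, 85.2 to 89.5% for PPARα and 26.1 to 33.3% for PPARδ, and the share of BCL6 sites with PPARα from 90.5 to 95.2%.

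Element counts followed the window by construction. In 50 bp they were 1 for BCL6 (1.19%, beside 2.71% of all sites) and 1 for PPAR (1.19%, beside 4.37%). The glucocorticoid receptor had 2 (2.38%, beside 0.486%), CREB 3 (3.57%, beside 1.73%) and FOXA 0 (beside 2.30%). In 100 bp they were 4 for BCL6 (4.76%, beside 5.68%) and 5 for PPAR (5.95%, beside 8.89%). CREB then had 5 (5.95%, beside 3.79%), the glucocorticoid receptor 3 (3.57%, beside 1.07%) and FOXA 0 (beside 4.45%). With 1 mismatch fewer they were 0 for BCL6 (beside 385 of all 38462 sites) and 2 for PPAR (2.38%, beside 3.16%). The glucocorticoid receptor then had 1 (1.19%, beside 0.302%) and CREB 2 (2.38%, beside 0.520%). Including predicted transcripts was chosen after seeing the data. No paired analysis was possible because each list pools its replicates; for the same reason no replicate could be left out, and without scores no stricter threshold could be set.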
